A study of Mus musculus with 4 samples.

Results

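The Mef2 factors and the class IIa histone deacetylases are 8 genes listed by name, Mef2a, Mef2b, Mef2c and Mef2d and Hdac4, Hdac5, Hdac7 and Hdac9, out of 34547 genes with a transcript in the tables. The rule takes no measured value. Their RNA was measured in laser-dissected forelimb cartilage of C57BL/6 mouse embryos. Proliferating chondrocytes (PC) came from E14.5 (E for embryonic day) and make up replicates 1 and 2, and hypertrophic chondrocytes (HC) came from E15.5 and make up replicates 3 and 4. No genotype or treatment is given for either group, and stage and zone change together, so the age of the embryo and the state of the cell cannot be told apart. The labels do not say whether the libraries came from separate embryos, so the p-values below measure only the spread between these libraries, which may be technical.

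Mef2 proteins are transcription factors with a shared MADS and MEF2 domain that binds an AT-rich element. The class IIa deacetylases carry a long amino-terminal part that binds Mef2 proteins and recruits corepressors, and a carboxy-terminal deacetylase domain. Phosphorylation of the amino-terminal part lets 14-3-3 proteins hold the deacetylase outside the nucleus, which frees Mef2. In the growth plate Mef2c is known to promote hypertrophy and Hdac4 to restrain it.

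Several sequences carry the findings below. The first pair is the choice between coding exons that follows the MADS and MEF2 exons of Mef2c. The upstream exon lies at chr13:83625265-83625408 and the downstream exon at chr13:83625470-83625607, plus strand of GRCm38, and a transcript normally holds 1 of them. Mef2a and Mef2d hold a pair at the same place. Aligned without gaps from their 3′ ends, the pair in Mef2c shared 73 of 138 bases. Capitals mark the short beta exon at chr13:83654598-83654621, which encodes an acidic stretch known from brain and striated muscle.
Mef2c upstream exon: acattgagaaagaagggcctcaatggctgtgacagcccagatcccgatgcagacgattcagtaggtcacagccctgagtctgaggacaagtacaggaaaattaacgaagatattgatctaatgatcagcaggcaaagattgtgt
Mef2c downstream exon: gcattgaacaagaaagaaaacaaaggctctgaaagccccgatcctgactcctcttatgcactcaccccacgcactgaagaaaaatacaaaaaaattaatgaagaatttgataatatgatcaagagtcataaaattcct
Mef2c beta exon: TCTGAGGATGTGGATCTGCTGTTG

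The next sequence is the end of the coding part of the short Hdac9 form. This form, known as MITR, keeps the part that binds Mef2 and lacks the deacetylase domain. It lies at chr12:34373830-34373937 on the minus strand of GRCm38. Lower case marks the last 60 bases it shares with the long form, and capitals mark the 48 coding bases that only the short forms of the annotation hold.
Hdac9 short form end: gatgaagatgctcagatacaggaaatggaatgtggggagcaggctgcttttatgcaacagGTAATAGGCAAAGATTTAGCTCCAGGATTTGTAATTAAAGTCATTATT

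Promoter windows of 300 bases (250 before to 50 after a RefSeq start site, GRCm38.p6) were found for all 8 members, 14 windows in total. They were searched on both strands for the 10-letter MEF2 consensus, for the RUNX letters TGTGGT, the cAMP element TGACGTCA, the AP-1 letters TGANTCA and the SOX letters ACAAAG. Of all 32851 RefSeq windows, 3.19% held the MEF2 consensus, 16.8% the RUNX, 1.79% the cAMP, 7.81% the AP-1 and 18.7% the SOX letters. Of the members' 14 windows, 2 held the MEF2 consensus, 3 the AP-1 letters and 4 the SOX letters, and none held the RUNX or cAMP letters. No match overlapped a match of another motif. The windows with the MEF2 consensus belonged to Mef2a, 2 bases before the start site, and to Hdac5, 20 bases before it. The Mef2c window upstream of its distal first exon is shown because transcripts from that exon took very different shares in the 4 libraries. The internal Hdac9 window is shown because it covers the start of the short form Hdac9-201. Capitals mark every match of these 5 motifs.
Mef2a, chr7:67372809-67373108, minus strand: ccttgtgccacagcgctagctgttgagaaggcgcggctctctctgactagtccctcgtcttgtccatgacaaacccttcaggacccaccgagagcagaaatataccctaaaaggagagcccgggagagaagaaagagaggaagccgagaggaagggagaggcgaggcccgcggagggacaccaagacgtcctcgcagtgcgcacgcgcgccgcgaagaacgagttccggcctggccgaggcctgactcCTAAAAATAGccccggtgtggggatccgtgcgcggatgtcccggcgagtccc
Hdac5, chr11:102230123-102230422, minus strand: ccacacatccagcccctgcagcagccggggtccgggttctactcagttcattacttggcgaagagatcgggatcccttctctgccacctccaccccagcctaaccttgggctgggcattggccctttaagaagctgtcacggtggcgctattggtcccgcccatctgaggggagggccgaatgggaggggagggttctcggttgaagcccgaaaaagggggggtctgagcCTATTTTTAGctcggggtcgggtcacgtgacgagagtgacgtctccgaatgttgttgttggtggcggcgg
Mef2c distal, chr13:83503784-83504083, plus strand: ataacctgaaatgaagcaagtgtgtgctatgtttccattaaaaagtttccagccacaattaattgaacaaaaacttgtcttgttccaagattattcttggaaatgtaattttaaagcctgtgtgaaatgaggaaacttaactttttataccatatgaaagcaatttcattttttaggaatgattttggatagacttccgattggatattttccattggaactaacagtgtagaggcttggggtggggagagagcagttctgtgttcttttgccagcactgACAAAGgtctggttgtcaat
Hdac9 internal, chr12:34528840-34529139, minus strand: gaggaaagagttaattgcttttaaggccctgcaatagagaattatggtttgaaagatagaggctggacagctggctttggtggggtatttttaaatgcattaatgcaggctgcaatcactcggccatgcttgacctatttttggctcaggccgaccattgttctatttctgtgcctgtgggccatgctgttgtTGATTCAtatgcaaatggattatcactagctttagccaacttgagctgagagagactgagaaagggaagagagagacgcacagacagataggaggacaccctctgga
A match describes these letters alone and is not a measured binding site.

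The libraries differed before any gene was compared, and values in library order below run from PC replicate 1 and PC replicate 2 to HC replicate 3 and HC replicate 4. PC replicates 1 and 2 held 30373440 and 36644496 estimated counts, and HC replicates 3 and 4 held 15246529 and 21866266. HC replicate 3 stood apart, with 8.75% of its counts on the gene model Gm10800 against 1.75% to 2.67% in the others, and with 20.2% on mitochondrial genes against 8.81% to 14.1%. Effective minus annotated transcript length had medians of -173 and -153 in PC, against -125 and -146 in HC, and values nearer 0 go with shorter fragments. Whether RNA quality or HC replicate 3 shaped a result was not tested beyond the values without each library that are given below. Chondrocyte markers were high in all 4 libraries, with a summed 70730, 57170, 44390 and 50220 CPM (counts per library size after TMM scaling, which corrects for differing RNA make-up) in library order. Col2a1, the main cartilage collagen, stood at 21870, 15020, 13020 and 15650 CPM, and Col11a1, another fibrillar collagen, at 12200, 11060, 8739 and 7889 CPM. Over the 12 chondrocyte markers, both PC libraries lay above both HC libraries for 9, and both HC libraries above both PC libraries for 2. Sox9, 1 of the 9, stood at 1515, 1349, 613 and 272 CPM, and Comp, 1 of the 2, at 843, 834, 1833 and 2113 CPM.

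Mef2c, Mef2a and Hdac9 were higher in hypertrophic than in proliferating chondrocytes, and no member was lower by the same test. On edgeR's quasi-likelihood test with Benjamini-Hochberg adjustment over 16607 genes and a threshold of 0.05, 3 of the 7 members tested passed higher in HC and 0 passed lower. Of all genes, 2.75% passed higher and 1.96% lower. In CPM, both HC libraries lay above both PC libraries for 5 members, beside 27.7% of all genes. Both PC libraries lay above both HC libraries for 1 member, Hdac4, beside 33.3% of all genes. The median log2 fold change of the members tested was 1.88, against -0.04 over all genes. At an unadjusted p under 0.05 in the same fit, 5 members were higher and 1 lower, beside 12.7% and 14.4% of all genes. DESeq2 also called 5 higher and 1 lower, beside 9.63% and 8.44% of all genes, and so did edgeR's likelihood ratio test, beside 9.23% and 10.2%. Without PC replicate 1, PC replicate 2, HC replicate 3 or HC replicate 4, 1, 2, 5 or 4 members were higher and 0, 0, 1 or 1 lower in edgeR's quasi-likelihood test, with the shares of all genes given beside the members below. In bulk RNA, more cells of a type and more RNA per cell cannot be told apart.

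**Figure D1:**
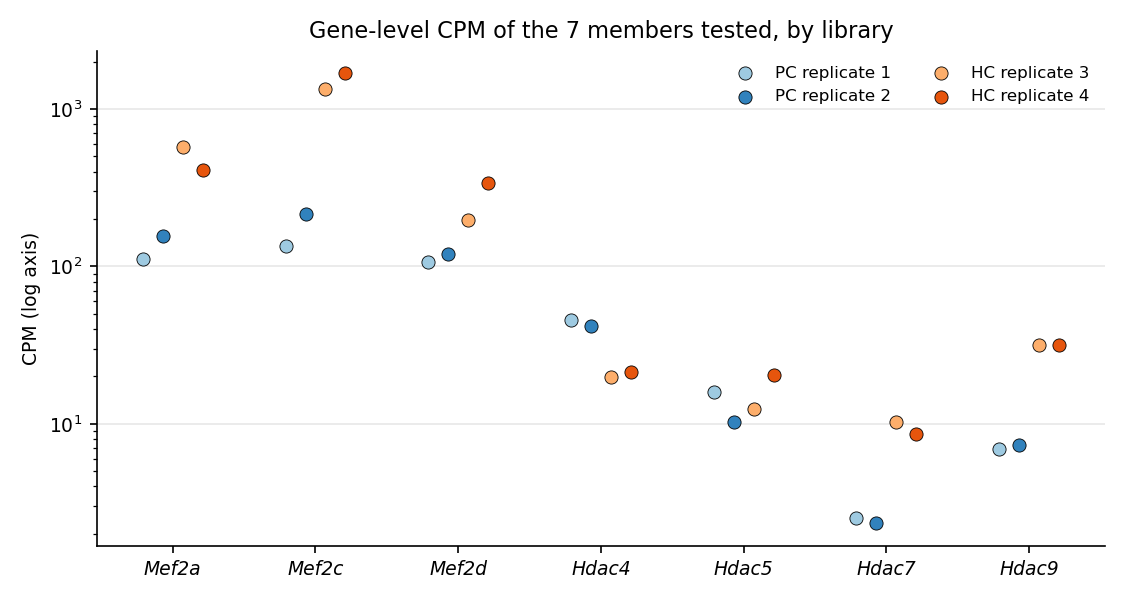
CPM of the 7 members tested (log axis) in PC replicates 1 and 2 (blue) and HC replicates 3 and 4 (orange), 1 point per library. Mef2c had the widest gap between groups, Hdac4 was the only one with both HC points below both PC points, and the groups overlapped for Hdac5.

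Mef2c (chr13:83504034-83667080, plus strand) is the family member most closely tied to hypertrophy. It stood at 136 and 215 CPM in PC and at 1340 and 1690 CPM in HC. Both HC libraries lay above both PC libraries, by 6.23 to 12.5 times over the 4 pairs. The log2 fold change was 3.11 ± 0.41 (SE, 2 libraries a group; edgeR adjusted p = 0.0359). Leaving out 1 library at a time gave 2.78 to 3.45, and the gene passed each time. Scaling to library size alone gave 2.88 (edgeR adjusted p = 0.0515), where 0% of all genes passed in either direction.

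Mef2a (chr7:67231163-67372858, minus strand) is broadly expressed, and its protein pairs with the other family members. It stood at 112 and 156 CPM in PC and at 574 and 408 CPM in HC, so that the groups did not overlap. The log2 fold change was 1.88 ± 0.36 (SE; edgeR adjusted p = 0.0479). Without PC replicate 1 it was 1.62 and no longer passed (edgeR adjusted p = 0.181), in a fit where 2.08% of all genes were higher and 1.41% lower. Lysmd4, which overlaps Mef2a on the opposite strand, stood at 14.97, 12.4, 58.5 and 25.9 CPM in library order. The sources used here do not give the strand setting of the counting, so reads of the pair may be shared, and its part in the Mef2a result was not tested.

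Mef2d (chr3:88142372-88172086, plus strand) is another broadly expressed factor. It stood at 107 and 120 CPM in PC and at 196 and 340 CPM in HC. In CPM both HC libraries lay above both PC libraries, but the HC libraries differed from each other by 1.73 times. The groups overlapped in TPM, a scale divided by transcript length and given below. The log2 fold change was 1.24 ± 0.37 (SE) and did not pass (edgeR adjusted p = 0.102). Without HC replicate 3 it was 1.55 (edgeR adjusted p = 0.00866), and without HC replicate 4 it was 0.74 (edgeR adjusted p = 0.109). Those fits called 13.1% of all genes higher and 15.2% lower, and 18.3% higher and 20.7% lower.

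Mef2b (chr8:70139711-70167488, plus strand) was close to undetected. It had 3, 0, 0 and 1 estimated counts in library order, and was not tested. A count of 0 allows up to 3 counts, or 0.0872, 0.0779, 0.244 and 0.135 CPM in the same order, for counting error only. Borcs8, which overlaps it on the same strand, had 15.4, 9.35, 2.92 and 13.5 CPM.

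Among the class IIa deacetylases, Hdac9 was higher in HC, and Hdac4 alone had its lower values there, without passing. Hdac9 (chr12:34047580-34917095, minus strand) stood at 6.95 and 7.29 CPM in PC and at 31.8 and 31.8 CPM in HC. In CPM, replicates of each group nearly coincided, and every HC library lay 4.36 to 4.58 times above every PC library. In TPM the HC libraries lay far apart, at 5.56 and 18.6, against 3.49 and 2.56 in PC. The log2 fold change was 2.16 ± 0.34 (SE; edgeR adjusted p = 0.037). Without PC replicate 1 it was 2.09 (edgeR adjusted p = 0.131) and without PC replicate 2 it was 2.16 (edgeR adjusted p = 0.0798), so the call but not the size was lost. The fit without PC replicate 2 called 3.28% of all genes higher and 2.98% lower.

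Hdac4 (chr1:91928779-92195699, minus strand), the class IIa enzyme whose loss is known to hasten hypertrophy in mice, stood at 45.6 and 42.1 CPM in PC and at 19.8 and 21.3 CPM in HC. Both HC libraries were at 0.434 to 0.505 times the PC libraries, and the replicates of each group lay close together in CPM. In TPM the HC libraries lay farther apart, at 2.23 and 6.65, against 15.01 and 13.1 in PC. The log2 fold change of -1.09 ± 0.3 (SE) did not pass (edgeR adjusted p = 0.0891). It passed without HC replicate 3 (edgeR adjusted p = 0.0452, log2 fold change -1.07) and without HC replicate 4 (edgeR adjusted p = 0.0226, log2 fold change -1.19), the fits with the many calls given for Mef2d.

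Hdac7 (chr15:97792664-97844502, minus strand), best known from endothelium and thymocytes, stood at 2.53 and 2.34 CPM in PC and at 10.2 and 8.64 CPM in HC. The groups did not overlap, and the log2 fold change was 1.95 ± 0.53 (SE), which did not pass (edgeR adjusted p = 0.0891). It passed without HC replicate 3 and without HC replicate 4, the fits with the many calls given for Mef2d. It did not pass without PC replicate 1 or without PC replicate 2. Over the alternatives in processing and libraries the log2 fold change ran from 1.15 to 2.08. Coding transcripts that cover the deacetylase region made up only part of this, at 1.41 and 0.384 CPM in PC and at 2.21 and 3.85 CPM in HC. A retained intron transcript, Hdac7-211, held 98.8 of the 126 counts of HC replicate 3. Slc48a1, which overlaps the 3′ end of Hdac7 on the other strand, stood at 7.12, 5.82, 11.9 and 22.9 CPM in library order.

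Hdac5 (chr11:102194432-102230166, minus strand), a class IIa enzyme that answers to similar kinases, stood at 16.0 and 10.3 CPM in PC and at 12.4 and 20.4 CPM in HC. Its groups overlapped, and the log2 fold change was 0.33 ± 0.45 (SE; edgeR adjusted p = 0.69). Without HC replicate 4 the sign turned, to -0.12.

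**Figure D2:**
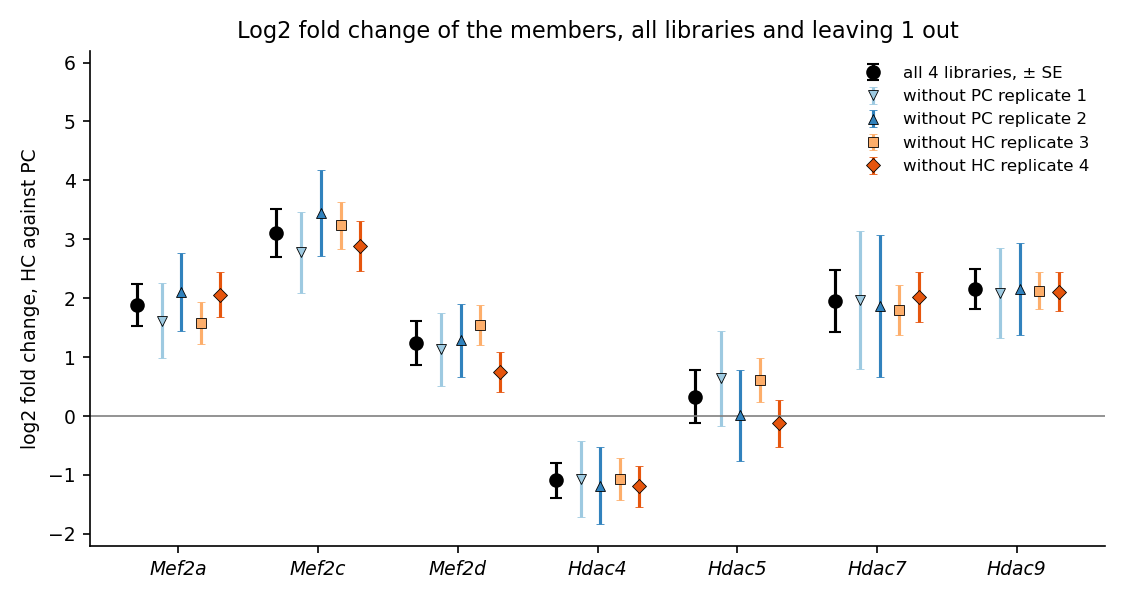
Log2 fold change of HC against PC for each member tested, with all 4 libraries (black) and with 1 library left out (coloured), and bars of ± 1 SE. Mef2c lay between 2.78 and 3.45 whichever library was left out, and Hdac5 is the only member that crossed 0.

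The same values were set against transcript length with the deposited TPM, which divides by length. In PC the order of the means ran Mef2c (129 and 219 TPM), Mef2d (112 and 135), Mef2a (46.0 and 51.1), Hdac4 (15.01 and 13.1), Hdac5 (7.77 and 4.14), Hdac9 (3.49 and 2.56) and Hdac7 (1.51 and 1.58). Mef2c and Mef2d overlapped in that order, while the other neighbours did not. In HC Mef2c led with 2048 and 2314 TPM, before Mef2d (115 and 332), Mef2a (99.0 and 127), Hdac9 (5.56 and 18.6), Hdac5 (3.76 and 20.0), Hdac7 (4.86 and 4.46) and Hdac4 (2.23 and 6.65). Below Mef2c, the neighbours in HC overlapped except Mef2a and Hdac9. Mef2d, whose groups were separate in CPM, overlapped between PC and HC in TPM. The Mef2 genes summed to 288 and 405 TPM in PC and to 2262 and 2773 TPM in HC, and the class IIa genes to 27.8 and 21.3 TPM in PC and to 16.4 and 49.7 TPM in HC. The ratio of the sums was 10.4 and 19.0 in PC and 138 and 55.8 in HC. In CPM, which is not divided by length, it was 5.0 and 7.9 in PC and 28.4 and 29.7 in HC. These TPM ranks and sums also take in transcripts without a complete coding sequence. Of the 20.0 TPM of Hdac5 in HC replicate 4, complete coding transcripts held 4.55. Mef2d-205, a transcript of 502 bases without coding sequence, held 54.6, 74.0, 57.7 and 173 TPM in library order.

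The make-up of each family differed between the groups on both scales. Mef2c held 45.0% and 54.1% of the Mef2 TPM in PC against 90.5% and 83.4% in HC. Of the Mef2 CPM it held 38.2% and 43.9% in PC against 63.5% and 69.3% in HC. The TPM shares take in the short, incomplete transcripts described below. Hdac4 held 54.0% and 61.2% of the class IIa TPM in PC against 13.6% and 13.4% in HC. Hdac9 went from 12.5% in PC replicate 1 and 12% in PC replicate 2 to 33.9% and 37.4% in HC. In CPM there were 6.56 and 5.78 counts of Hdac4 for each count of Hdac9 in PC and 0.623 and 0.67 in HC, so the more counted of the pair changed places in both HC libraries.

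The TPM of Mef2c rested on short, incomplete transcripts. Complete coding transcripts, 13 of the 31 in the tables, held 39.1 and 37.3 TPM in PC against 129 and 268 TPM in HC. Incomplete ones held 81.9 and 173 TPM in PC against 1900 and 1990 TPM in HC, among them Mef2c-221 (363 bases) and Mef2c-217 (689 bases). Complete coding transcripts alone still placed both HC libraries above both PC libraries. Those of Mef2d held 56.9 and 60.7 TPM in PC, above those of Mef2c, and 57.6 and 159 TPM in HC, below them. The ranks, sums, ratios and shares of TPM given above count all transcripts and rest in part on the incomplete ones.

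Where Mef2c transcripts began was described after the values were seen, by the place of the first exon. Distal first exons begin between positions 83504034 and 83504240 of chromosome 13, within or just after the Mef2c window printed above, middle ones between 83523473 and 83530138, and proximal ones between 83572348 and 83575677. The 3 transcripts that begin farther in held at most 3.66 CPM in any library. Distal transcripts stood at 1.25 and 10.3 CPM in PC and at 666 and 128 CPM in HC. As a share of Mef2c counts that was 0.92% (95% Wilson interval 0.68% to 1.24%) and 4.78% (4.34% to 5.26%) in PC, and 49.7% (48.9% to 50.4%) and 7.59% (7.32% to 7.86%) in HC, intervals that cover counting error only. Both HC libraries were above both PC libraries, and HC replicate 3 was far above HC replicate 4. Without the short Mef2c-221, distal transcripts stood at 1.25 and 8.39 CPM in PC and at 210 and 14.4 CPM in HC. They then held 43 of 4671 and 323 of 8282 Mef2c counts in PC, and 2589 of 16512 and 319 of 37551 in HC. As a share, HC replicate 4 was then below both PC libraries, so its higher share rested on Mef2c-221. Middle transcripts stood at 80.4 and 138 CPM in PC and at 338 and 1009 CPM in HC, and proximal ones at 52.7 and 66.0 CPM in PC and at 334 and 550 CPM in HC, so all 3 groups were higher in both HC libraries.

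**Figure D3:**
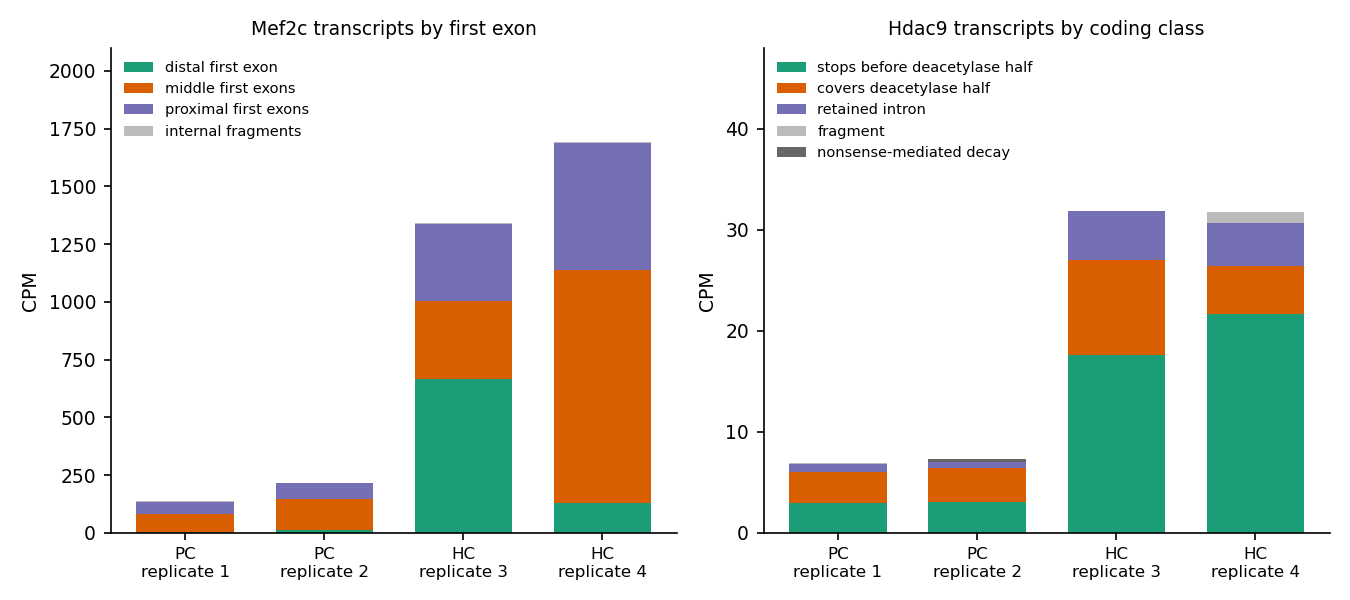
CPM by library of Mef2c transcripts by first exon (left) and of Hdac9 transcripts by coding class (right), stacked to the total of the gene. In HC replicate 3 the distal first exon of Mef2c holds 666 of 1340 CPM, and in both HC libraries the short Hdac9 forms are the largest class.

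Transcript usage within the members was not called by diffSpliceDGE of edgeR, with Simes p-values per gene and adjustment over 9183 genes. It called 0 of 7 members and 0.196% of all genes, and no member had an unadjusted Simes p under 0.05. The lowest adjusted values were 0.285 for Hdac5 and 0.435 for Mef2c. Without HC replicate 4 Hdac4 passed (diffSpliceDGE adjusted p = 0.0269), in a fit that called 14.2% of all genes. The shares that follow are descriptions.

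Hdac9 short forms were counted about as often as long forms in PC and more often in HC. Forms that stop before the deacetylase region, with the ending printed above, held 101 and 116 counts in PC and 216 and 482 in HC, and forms that cover it held 107 and 131 in PC and 117 and 106 in HC. In CPM the short forms stood at 2.92 and 3.02 in PC and 17.6 and 21.7 in HC, and the long forms at 3.12 and 3.41 in PC and 9.49 and 4.75 in HC. Both kinds were higher in both HC libraries, the short forms by more. Of the counts that decide between the forms, the short ones took 48.6% and 47.0% in PC and 64.9% and 82.0% in HC. As TPM the shares were 78.4% and 74.3% in PC and 78.5% and 94.9% in HC, so HC replicate 3 lay by the PC libraries on that scale. In HC replicate 4 most of the short form was Hdac9-208 (339.5 counts), which had 0 counts in HC replicate 3, where Hdac9-201 held 206.5.

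In Mef2c the upstream exon took 78.5% and 67.7% of the deciding counts in PC and 59.0% and 62.7% in HC, and 45.6% and 36.8% of the deciding TPM in PC against 33.5% and 27.2% in HC. Both HC libraries were below both PC libraries on both scales, over transcripts that hold only 1 exon of the pair. In HC replicate 3, 7406 of 16512 Mef2c counts decided the share. Mef2c-202, which holds both exons, is left out of it and had 37, 0, 1770 and 0 counts in library order. It made up 10.7% of the Mef2c counts of HC replicate 3, and its effect on the share was not tested. The beta exon was included in 75.2% and 80.2% of deciding counts in PC and in 46.5% and 92.5% in HC, with HC replicate 3 lowest and HC replicate 4 highest. The gamma stretch, known as a repressive stretch of the carboxy-terminal region, was included in 29.1% and 49.0% of deciding counts in PC and 68.5% and 50.6% in HC. The groups did not overlap, but PC replicate 2 and HC replicate 4 lay close together.

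In Mef2a the upstream exon took 86.8% and 89.8% of deciding counts in PC and 100% and 90.3% in HC, both above PC. The beta exon was included in 74.7% and 89.7% in PC and 100% and 87.6% in HC. Both shares came mainly from 1 transcript, Mef2a-208, with 1990, 4136, 5954 and 6157 counts in library order. Mef2d split its counts more evenly, with 60.2% and 42.2% on the upstream exon in PC and 51.2% and 49.3% in HC. Its beta exon held at most 0.4% of deciding counts in any library. Mef2d thus stood apart from Mef2a and Mef2c in beta exon content in all 4 libraries, while PC and HC overlapped for the beta exon in each of the genes.

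**Figure D4:**
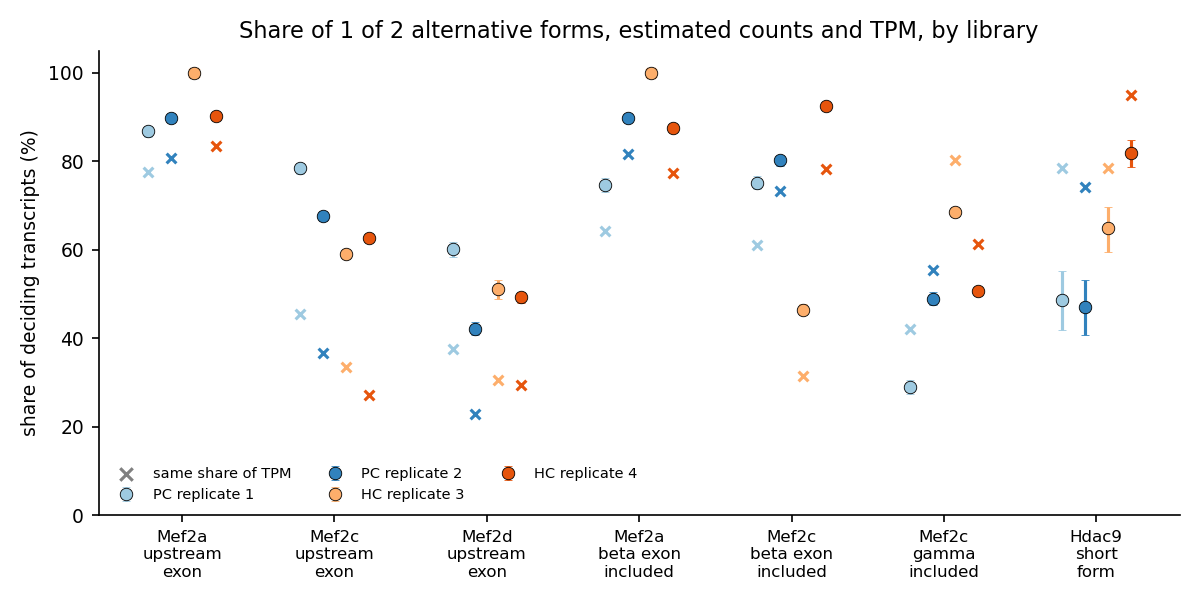
Share of 1 of 2 alternative forms among the counts that decide between them (circles, with 95% Wilson intervals for counting error only) and the same share of TPM (crosses), by library. The Mef2c upstream exon is a pair whose HC points lie below the PC points on both scales, over transcripts that hold only 1 exon of the pair.

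Mef2 and class IIa proteins are controlled mainly through kinases, and none of these were called. Of 22 kinases of class IIa proteins 21 were tested and 0 passed in either direction in edgeR, with a median log2 fold change of 0.23. Sik3, a salt-inducible kinase, stood at 161, 155, 181 and 190 CPM in library order, and Mark2, a polarity kinase, at 64.1, 52.0, 29.1 and 59.0 CPM. At an unadjusted p under 0.05, 3 were higher (Camk2a, Prkaa2 and Sik1) and 2 lower (Camk1d and Camk4), named after their values were seen. DESeq2 and the likelihood ratio test of edgeR each called 3 higher and 1 lower. In the quasi-likelihood fits without HC replicate 3 and without HC replicate 4, which call many genes, 4 and 6 kinases were higher and 1 and 3 lower. Without PC replicate 2, 1 was higher and 1 lower.

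The carriers and phosphatases were not called either. Of 8 genes for 14-3-3 proteins and nuclear export 0 passed in edgeR, 0 had an unadjusted p under 0.05, and DESeq2 and the likelihood ratio test called 0, with a median log2 fold change of 0.21. Without HC replicate 4, 1 was higher. Ywhae and Ywhab, which encode 14-3-3 epsilon and beta, stood at 813, 1260, 2084 and 1147 CPM and at 253, 342, 480 and 288 CPM in library order. Of 12 phosphatase genes 0 passed in edgeR (median log2 fold change 0.28), with Ppp1cb, a catalytic subunit, at 182, 289, 522 and 414 CPM and Ppp1r12a, a myosin phosphatase subunit, at 143, 191, 208 and 223 CPM. Ppp1cb and Ppp2cb were the 2 with an unadjusted p under 0.05, both higher. DESeq2 called 1 higher, the likelihood ratio test 0, and the fits without HC replicate 3 and without HC replicate 4 called 1 higher and 1 lower.

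No corepressor and no other deacetylase was called. Of 10 corepressor genes 0 passed in edgeR, and the median log2 fold change was -0.39. Ncor1, the scaffold that binds Hdac3, stood at 335, 380, 370 and 401 CPM and Tbl1xr1, its partner, at 60.2, 71.6, 72.5 and 125 CPM in library order. At an unadjusted p under 0.05, 0 were higher and 1 lower, and DESeq2 and the likelihood ratio test each called 1 gene of the list lower. Of 14 other deacetylases, which share Hdac3 with that list, 0 passed in edgeR (median -0.46). Hdac1 stood at 65.4, 45.4, 54.7 and 27.2 CPM and Hdac2 at 40.7, 42.7, 35.3 and 44.7 CPM. Hdac8 was higher and Hdac6 lower at an unadjusted p under 0.05, and DESeq2 and the likelihood ratio test each called 1 higher. Without HC replicate 3, 2 corepressors were lower, and 1 other deacetylase was higher and 1 lower. Without HC replicate 4, 3 corepressors were lower, and 1 other deacetylase was higher and 5 lower.

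Of 18 Mef2 cofactors and kinases 1 fell and 0 rose, with a median log2 fold change of 0.03. Carm1, an arginine methyltransferase that serves as a Mef2 coactivator, stood at 323 and 220 CPM in PC and at 59.3 and 52.2 CPM in HC, and the groups did not overlap. Its log2 fold change was -2.28 ± 0.34 (SE; edgeR adjusted p = 0.037). Trps1, a zinc finger repressor, stood at 343, 430, 568 and 739 CPM in library order and did not pass. At an unadjusted p under 0.05 Kat2b and Vgll2 were higher and Carm1 and Cabin1 lower, and DESeq2 and the likelihood ratio test each called 2 higher and 2 lower. Without HC replicate 3, 1 was higher and 3 lower, and without HC replicate 4, 2 were higher and 4 lower.

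Of 18 hypertrophy genes tied to Mef2 and Hdac4, 6 rose and 1 fell, with a median log2 fold change of 3.13. The list was chosen with these data known and is not independent evidence of its direction. Bmp6, a bone morphogenetic protein, stood at 7.70 and 11.8 CPM in PC and at 113 and 229 CPM in HC, a log2 fold change of 4.13 ± 0.5 (SE; edgeR adjusted p = 0.0359). Bmp2, of the same family, stood at 14.8 and 25.4 CPM in PC and at 182 and 172 CPM in HC. Alpl, the mineralising phosphatase, stood at 3.55 and 13.2 CPM in PC and at 179 and 216 CPM in HC. Ihh, Foxa2 and Pth1r rose too, and are named here after their values were seen. Runx3, which acts beside Runx2, fell from 146 and 114 CPM in PC to 35.0 and 29.5 CPM in HC. Col10a1, the collagen of hypertrophic cartilage, stood at 109 and 876 CPM in PC and at 17800 and 26920 CPM in HC and missed the threshold (edgeR adjusted p = 0.0538), and Spp1, the matrix protein osteopontin, stood at 19.3, 280, 3331 and 6293 CPM. PC replicate 2 exceeded PC replicate 1 for both. Leaving out PC replicate 1, PC replicate 2, HC replicate 3 or HC replicate 4 gave 10, 11, 14 or 13 genes higher and 1, 1, 1 or 2 lower.

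Of 15 genes listed as induced by activity through Mef2, mostly in nerve and muscle, 14 were tested, 4 rose and 0 fell. The median log2 fold change was 0.74. Egr1, an immediate early factor, stood at 7.21 and 12.6 CPM in PC and at 166 and 162 CPM in HC. Bdnf, a neurotrophin, stood at 1.34 and 1.71 CPM in PC and at 15.2 and 20.8 CPM in HC, Smyd1, a muscle methyltransferase, at 0.116 and 0.311 CPM in PC and at 8.93 and 10.4 CPM in HC, and Klf6, a zinc finger factor, at 53.8 and 76.2 CPM in PC and at 201 and 258 CPM in HC. Both HC libraries lay above both PC libraries for 8 of the 14 tested, beside 27.7% of all genes. Both PC libraries lay above both HC libraries for 3, beside 33.3%. Egr1, Bdnf, Smyd1 and Klf6, named for their low p, were among the 8. Nr4a2 (11.5, 13.01, 31.2 and 29.9 CPM) and Klf4 (29.5, 24.2, 61.8 and 35.8 CPM) did not pass. The list also holds Bop1, a ribosome biogenesis gene whose symbol resembles an older name of Smyd1. At an unadjusted p under 0.05, 6 were higher, and the 1 that was lower was Bop1 (log2 fold change -2.91). DESeq2 and the likelihood ratio test also called 6 genes of the list higher and 1 lower. Without HC replicate 3, 7 were higher and 1 lower, and without HC replicate 4, 7 were higher and 2 lower.

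Markers of other cell types were higher in the HC libraries beside Mef2a, Mef2c, Hdac7 and Hdac9, genes that muscle or endothelium also express. Of 20 muscle markers 15 were tested and 2 rose, Myh3 and Myl1, a myosin heavy and a light chain. Their summed level was 43.4 and 62.5 CPM in PC against 726 and 181 CPM in HC, with HC replicate 3 highest. Both HC libraries lay above both PC libraries for 13 of the 15, beside 27.7% of all genes, and 10 were higher at an unadjusted p under 0.05, beside 12.7%. The 5 untested genes, all transcription factors of the muscle lineage, had few counts: in library order Myog had 3, 9, 39 and 0, Pax7 0, 3, 24 and 0, Myf6 0, 0, 0 and 6, Myod1 1, 5, 0 and 0, and Myf5 2, 0, 0 and 0. Myog and Pax7 were thus highest in HC replicate 3, the library with the highest muscle sum. Tnnt3 and Tnnt1, troponin genes, did not pass. Of 12 endothelial markers 10 were tested and 2 rose, Cdh5 and Kdr, an adhesion molecule and a growth factor receptor, with Pecam1 and Egfl7 not passing. They summed to 31.7 and 26.7 CPM in PC and to 264 and 142 CPM in HC. For 8 of the 10 both HC libraries lay above both PC libraries, beside 27.7% of all genes. At an unadjusted p under 0.05, 6 were higher, beside 12.7%. The untested Cldn5 had 0, 0, 0 and 13 counts in library order and Sox17 had 0, 9, 7 and 0.

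Of 12 macrophage and blood markers 11 were tested and 2 rose, Hbb-bs, a globin whose near copies share reads, and Cd68, a lysosomal protein, with Hba-a1 and Alas2 not passing. They summed to 17.0 and 24.4 CPM in PC and to 193 and 95.9 CPM in HC. For 10 of the 11 both HC libraries lay above both PC libraries, beside 27.7% of all genes. At an unadjusted p under 0.05, 7 were higher, beside 12.7%. Csf1r, the receptor that defines the macrophage line, had 24, 67, 456 and 227 counts in library order, and the complement gene C1qb had 2, 6, 76 and 30. Its partner C1qa, the untested gene, had 2, 11, 0 and 0. Of 8 osteoblast markers 7 were tested and 1 rose, and they summed to 666 and 1177 CPM in PC and to 13520 and 4689 CPM in HC, with Col1a1 and Col1a2, which encode type I collagen, as the largest. Both HC libraries lay above both PC libraries for all 7, and all 7 were higher at an unadjusted p under 0.05, beside the same shares of all genes. Bglap, which encodes osteocalcin, had 0, 8, 76 and 67 counts in library order, and its near copy Bglap2, untested, had 5, 0, 0 and 0, and reads of the pair may be split between them. Of 12 chondrocyte markers 0 passed in edgeR, 1 was higher and 6 lower at an unadjusted p under 0.05, DESeq2 called 1 higher and 6 lower, and the likelihood ratio test 1 and 4. Both PC libraries lay above both HC libraries for 9 of the 12, beside 33.3% of all genes. Both HC libraries lay above both PC libraries for 2, beside 27.7%. Median log2 fold changes were 3.04, 3.11, 2.77 and 4.65 for the muscle, endothelial, macrophage and blood, and osteoblast lists and -1.1 for the chondrocyte list. The sums of the muscle, endothelial, macrophage and blood, and osteoblast lists were lower in HC replicate 4 than in HC replicate 3. In CPM, Mef2a, Hdac7 and the distal Mef2c transcripts (666 CPM in HC replicate 3, 128 CPM in HC replicate 4) were lower there too. Mef2c as a whole was higher in HC replicate 4 (1690 against 1340 CPM), and Hdac9 was level (31.8 CPM each). In TPM those list sums, Hdac7 and the distal transcripts were again lower in HC replicate 4. Mef2a (127 against 99.0 TPM) and Hdac9 (18.6 against 5.56 TPM) were higher there, so the likeness depended on the scale. The part of other cell types in the members' levels was not tested. Fits without 1 library leave 1 library in a group and call very different shares of all genes, so their counts for these lists are left out.

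**Figure D5:**
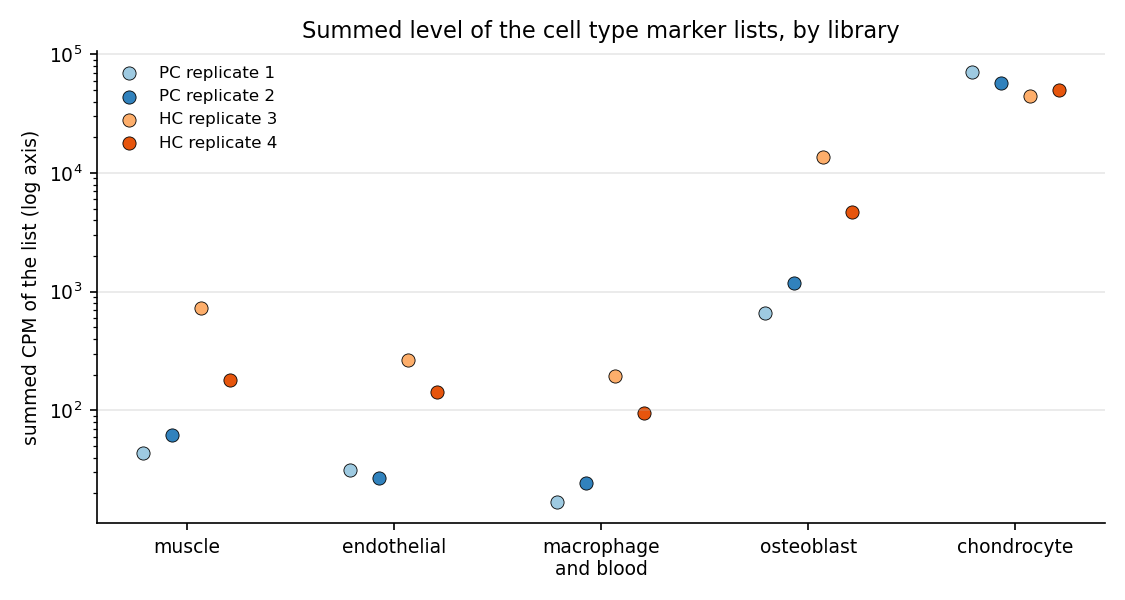
Summed CPM (log axis) of each marker list by library. All 4 lists of other cell types are higher in both HC libraries and highest in HC replicate 3 (muscle 726 against 181 CPM in HC replicate 4). The chondrocyte list lies between 44390 and 70730 CPM and is lower in both HC libraries than in both PC libraries.

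Genes with the pattern most like a member were taken among 8886 protein-coding genes of at least 5 mean TPM, by the root mean square difference of centred log2 CPM over the 4 libraries. For Mef2c these were Slc39a8, Ank, Cd44, Cdk19 and Pik3ip1 (differences of 0.069 to 0.124), a zinc carrier, a pyrophosphate carrier, a hyaluronan receptor, a Mediator kinase and a regulator of phosphoinositide kinase. Slc39a8, the nearest, stood at 4.33, 6.78, 44.7 and 49.5 CPM in library order. For Hdac9 they were Osbpl5, Timp3, Specc1, Socs2 and Rgl1 (0.038 to 0.116). Timp3, an inhibitor of matrix proteases, stood at 40.5, 49.5, 205 and 199 CPM. For Hdac4 they were Rbmxl1, Bysl, Slc35f5, Dlc1 and Poglut1 (0.014 to 0.044). Dlc1, a regulator of small GTPases, stood at 288, 252, 121 and 126 CPM. These are descriptions over 4 libraries.

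Calls of the members by other processing differed in number. An offset for average transcript length left 1 member higher, Mef2c (log2 fold change 4.09, edgeR adjusted p = 0.0439), where 1.62% of all genes were higher and 1.01% lower. Limma-trend on log2(TPM + 1) and on log2(TPM + 0.1) called 0% of all genes and no member in any direction.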

How the data were processed

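RNA of laser-dissected forelimb cartilage was sequenced in 2 PC and 2 HC libraries from kits for small or degraded RNA, per the labels' protocols. Trimmomatic 0.36, kallisto 0.43.1 and mm10 are named in the submitters' processing notes. The deposited tables give, per transcript, estimated counts and TPM, per the file headers. The authors' effective length column is of another kind, in bases. Neither strand setting nor transcript set is given in the sources used here. Of 109282 transcripts listed, 107987 were matched by identifier to the GRCm38 annotation, and the 1295 unmatched held 0.36% to 0.53% of the deposited estimated counts. Counts and TPM were summed per gene, and the sums of the estimated counts were rounded. Genes kept by filterByExpr were scaled with TMM and tested with edgeR 4.0.16 (glmQLFit, glmQLFTest; R 4.3.3), with p-values adjusted over 16607 genes by the Benjamini-Hochberg method and called at 0.05. The 4 libraries held 15246529 to 36644496 estimated counts. Transcript usage was tested with diffSpliceDGE. Transcripts were put into classes by their annotated coding exons, and long deacetylase forms cover at least 50% of the later part of the coding exons. Wilson intervals at 95% cover counting error only.

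The members and gene lists were chosen with earlier results of these data known. Named genes are all members, from each list up to 4 called genes with the lowest p and up to 2 uncalled genes with the largest mean TPM, and the 5 genes nearest in pattern to Mef2c, Hdac9 and Hdac4 (log2 CPM with a prior count of 2). Alternatives were RLE, upper-quartile and library size scaling, other filters, DESeq2 1.42.0, edgeR's likelihood ratio test, a length offset, limma 3.58.1 on log2(TPM + 1) and log2(TPM + 0.1), leaving out mitochondrial genes and Gm10800, and leaving out each library. CPM in place of TPM for the family sums and counts in place of TPM for the Mef2c starts were added after seeing the data. On simulated counts for 16607 genes of the PC and HC comparison the test called 50 of 100 genes changed 4-fold and 100 of 100 changed 16-fold. It also called 12 unchanged genes. The simulation capped the spread between libraries and changed only genes above a set mean CPM, so it does not cover genes as low as Hdac7. Promoter sequences are from RefSeq (GRCm38.p6) and exon sequences from the GRCm38 genome. Some named genes are not reported here, though they count in their lists.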

Additional observations from a re-analysis of the deposited data

How the results depend on the processing

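Of 1139 values recomputed for 86 results, 855 kept their direction and side of the threshold or moved little, and 23 reversed. Against 3 members higher and 0 lower in edgeR's quasi-likelihood test, library size scaling, limma on log2(TPM + 1) and limma on log2(TPM + 0.1) called 0, the length offset 1 higher, and DESeq2 and the likelihood ratio test 5 higher and 1 lower. Leaving out 1 library gave 1 to 5 members higher and 0 to 1 lower, and 0 to 1 with changed transcript usage. The short share of Hdac9 differed by 10.35 percentage points of TPM and by 25.65 points of estimated counts between HC and PC. The median log2 fold change of all genes was -0.04, and -0.29 with library size scaling, -0.39 and -0.59 with limma, -0.25 without a filter and -0.2 in DESeq2. Calls over all genes were 457 higher and 325 lower, against 963 and 965 without a filter, 899 and 557 with CPM of at least 5 in 2 libraries, 1651 and 1446 in DESeq2 and 1532 and 1698 in the likelihood ratio test. They were 269 and 167 with the length offset and 0 and 0 with library size scaling or limma. Without PC replicate 1, PC replicate 2, HC replicate 3 or HC replicate 4 they were 379 and 257, 602 and 546, 2378 and 2774, or 3331 and 3775. Library size scaling and limma also called 0 genes of each list. Without a filter, with CPM of at least 5, in DESeq2 and in the likelihood ratio test, 14, 13, 14 and 14 hypertrophy genes were higher against 6. In the same order, 6, 6, 7 and 7 muscle and 4, 4, 6 and 6 endothelial markers were higher against 2 each, and 4, 4, 6 and 6 macrophage and blood markers against 2. Osteoblast markers gave 7, 6, 7 and 7 against 1. Under both filter settings, 2 kinases were higher and 1 lower, and 1 cofactor was higher and 2 lower. With the same settings 1 gene of the activity list was lower and 1 other deacetylase higher. Without a filter 1 corepressor and 3 chondrocyte markers were lower, and with CPM of at least 5, 1 chondrocyte marker. With the length offset 1 endothelial and 1 macrophage and blood marker was higher. The cause of these differences was not tested.

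Of the members' log2 fold changes, that of Hdac5 reversed, to -0.12 without HC replicate 4. Among the genes of the lists, reversed values were as follows. With library size scaling they were Sik3 -0.03 and Ncor1 -0.14, with upper-quartile scaling Hdac2 0.02, and with CPM of at least 5 Hdac2 0.04. With limma on log2(TPM + 1) they were Sik3 -0.16, Ywhab -0.17, Ppp1r12a -0.58, Ncor1 -0.23 and Alas2 -0.31, and on log2(TPM + 0.1) the same genes at -0.16, -0.17, -0.59, -0.23 and -0.33. With the length offset they were Mark2 0.41, Ppp1r12a -0.14 and Hdac2 0.24. Without PC replicate 1 Ncor1 was at -0.01, and without HC replicate 3 they were Ywhab -0.08, Hdac2 0.07, Tnnt3 -0.61 and Egfl7 -0.87. Leaving out 1 library gave ranges of -0.12 to 0.64 for Hdac5, -0.08 to 0.64 for Ywhab, -0.01 to 0.17 for Ncor1, -0.61 to 1.68 for Tnnt3 and -0.87 to 1.94 for Egfl7. None of these genes passed the test with all 4 libraries. No paired analysis was possible because the replicate numbers of PC (1 and 2) and HC (3 and 4) are not shared. With 2 libraries a group there were 2 residual degrees of freedom, and a fit without 1 library assumes that the lone library varies like the other group.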
